A study of Mus musculus with 4 samples.

Results

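The CTCF profile of mouse chromosome 11 was described from all peaks listed on that chromosome in splenic B cells and in splenic plasmablasts. The B cell list held 2960 peaks on chromosome 11 of 36381 in all (8.14%), and the plasmablast list held 2440 of 31086 (7.85%). The chromosome was chosen by its number of listed peaks per Mb, the highest of all chromosomes in both lists, so its density is given as a description and not as a finding. CTCF-bound DNA had been sequenced from 1 library per cell type, beside 1 input library each that was not analysed here. The B cells were CD43- cells purified with magnetic beads from the spleens of C57BL/6 mice aged 6 weeks. The plasmablasts were CD138+ cells sorted from spleens of C57BL/6 mice of the same age, taken 3 days after 50 µg of lipopolysaccharide (LPS) had been injected behind the eye. The CD43- fraction is a selection by absence of a surface marker and CD138 was the only marker given for the sort. Peak lists hold no expression values, so the cell types were taken from the labels. The B cell libraries were sequenced on another instrument model than the plasmablast libraries, so cell type and instrument cannot be told apart in any comparison below. Each cell type had a single CTCF library, so nothing measures the spread between replicates and no p-value was computed. Intervals are exact (Clopper-Pearson) 95% binomial intervals and cover counting error only.

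CTCF is a zinc finger protein that binds a long DNA motif, stops the loop-extruding cohesin complex and so marks the anchors of chromatin loops and the borders of chromosome domains. Many of its sites are bound in most cell types, and gene-rich chromosome regions carry more of them than gene-poor ones. Mouse chromosomes have their centromere at the end where the numbering begins, and bins are counted from that end. Chromosome 11 carries several genes known from B lineage biology, among them those for the transcription factors Ikzf1, Ikzf3, Ebf1 and Xbp1 and for the B cell receptor component Cd79b, as well as Trp53, the alpha-globin gene Hba-a1 and the Hoxb cluster. No annotation or sequence of the mm9 build was used here, so no gene was placed at a peak, no sequence is shown and sites are named by their mm9 positions (1-based).

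Chromosome 11 held 24.9 B cell and 20.5 plasmablast peaks per Mb over the 118.8 Mb covered by peaks. Next in density were chromosome 19, with 20.7 and 16.6 peaks per Mb, and chromosome 17, with 18.6 and 15.1. The remaining autosomes went down to 10.3 and 9.32 per Mb on chromosome 3. The 10000 highest scoring peaks of each list are part of the lists that chose the chromosome, so their density is likewise a description. Among them chromosome 11 had 7.89 (B cells) and 7.07 (plasmablasts) per Mb. The other autosomes had at most 6.35 and 5.97, both on chromosome 19. All chromosome 11 peaks had 1 width per list, 305 bp in B cells and 179 bp in plasmablasts. The peak score, the authors' own value with no stated unit, ran from 10.2 to 417.7 (median 70.8) on chromosome 11 in B cells and from 2.0 to 149.5 (median 21.5) in plasmablasts. Scores were therefore read only as percentiles within the whole list of the same cell type.

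Counted per gene, chromosome 11 lay in the middle of the autosomes. The RefSeq gene table of the GRCm38.p6 assembly gives it 1609 protein-coding genes, the third highest number after chromosomes 7 and 2. Its 1.84 B cell peaks per protein-coding gene were eighth of 19 autosomes, where the others ran from 1.22 on chromosome 7 to 2.09 on chromosome 5 with a median of 1.71. In plasmablasts the 1.52 peaks per gene were also eighth, and the others ran from 1.03 on chromosome 7 to 1.74 on chromosome 12. Over the 19 autosomes the number of B cell peaks followed the number of protein-coding genes with a Spearman rho of 0.95, and that of plasmablast peaks with 0.94. Per Mb the same rho was 0.91 for either list. Chromosomes are not independent samples and all share the same library and depth, so these are descriptions. Gene counts come from another build than the peaks, and they were used only per chromosome.

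**Figure D1:**
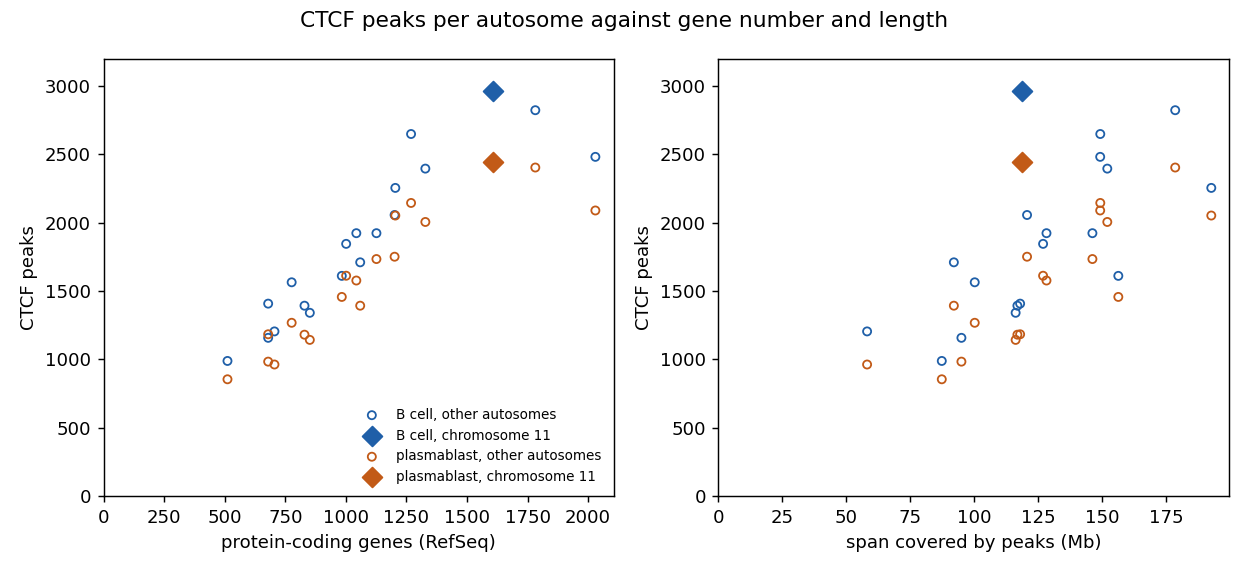
Number of CTCF peaks per autosome (y axis) against the number of protein-coding genes in the RefSeq table (left) and against the length covered by peaks in Mb (right), with B cells in blue and plasmablasts in orange. Chromosome 11 (diamonds) stands above the other autosomes of like length in the right panel and within their trend in the left panel, at 1609 genes and 2960 or 2440 peaks.

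The profile along the chromosome was divided into 25 bins of 5 Mb, with each peak placed by its midpoint. The first peak lay at 3023187 and the last ended at 121827483, so bins 1 and 25 were only partly covered, over 1.98 and 1.83 Mb, and were left out of the ranges. Over the other 23 bins the B cell count ran from 18 to 292 with a median of 116, and the plasmablast count from 11 to 217 with a median of 93. Bins 2 to 10 (5 to 50 Mb) held 11.2 B cell and 9.76 plasmablast peaks per Mb, and bins 11 to 24 (50 to 120 Mb) held 33.0 and 27.0. Bin 1, next to the centromere, held 38.4 and 28.8 peaks per covered Mb over its 1.98 Mb. The stretch from 50 to 120 Mb carried 77.9% of the chromosome's peaks in B cells and 77.4% in plasmablasts. The point of division at 50 Mb was chosen after the counts were seen.

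Bin 24, from 115 to 120 Mb, was the richest in both lists, with 292 B cell and 217 plasmablast peaks. Bin 20 (95 to 100 Mb) followed with 242 and 212, and bin 21 (100 to 105 Mb) with 226 and 187. These 3 bins cover 15 Mb and held 25.7% of the chromosome's peaks in B cells and 25.2% in plasmablasts. Bin 16 (75 to 80 Mb) came next with 207 and 162. Between these rich bins the counts dipped, to 72 and 63 in bin 19 (90 to 95 Mb). That bin holds a gap of 2.77 Mb without a peak in either list.

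The 4 sparsest bins all lay between 10 and 40 Mb. Bin 8 (35 to 40 Mb) had 18 B cell and 11 plasmablast peaks, the lowest counts of both lists. Bin 3 (10 to 15 Mb) had 21 and 18, bin 6 (25 to 30 Mb) 28 and 25, and bin 4 (15 to 20 Mb) 30 and 26. Together these 4 bins cover 20 Mb and held 3.28% of the peaks of either list. The order of the bins was nearly the same in both cell types, with a Spearman rho of 0.99 between the counts of 23 bins. Both counts are of the same genome, so the bins are not independent points.

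**Figure D2:**
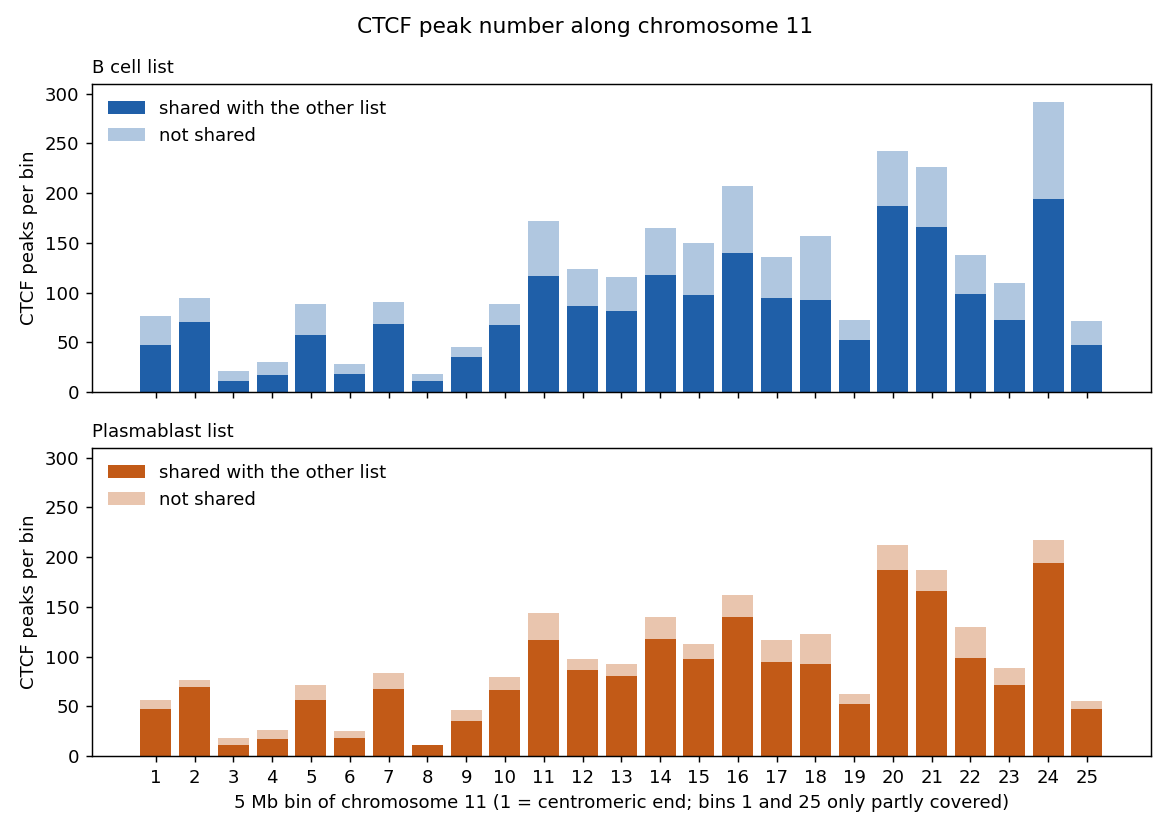
Number of CTCF peaks in each 5 Mb bin of chromosome 11 (x axis, bin 1 at the centromeric end) in the B cell list (upper panel) and the plasmablast list (lower panel), with shared peaks in dark and unshared peaks in light colour. Both lists have their lowest bar at bin 8 (18 and 11 peaks) and their highest at bin 24 (292 and 217).

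The ratio of B cell to plasmablast peaks was 1.21 on chromosome 11, within the range of the other autosomes (1.098 to 1.25). By bin, among fully covered bins with at least 20 shared sites, it ran from 0.98 in bin 9 (40 to 45 Mb), which had 45 B cell and 46 plasmablast peaks, to 1.35 in bin 24. Bin 9 was the only one of the 25 with more plasmablast than B cell peaks, by 1 peak. In bin 22 (105 to 110 Mb) the lists were also close, with 138 and 130 peaks.

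At a finer scale, 119 windows of 1 Mb overlapped the covered part of the chromosome, with a median of 22 B cell and 19 plasmablast peaks. More than 50 B cell peaks were found in 12 of these windows, against 69 of 2299 windows on the other autosomes. Chromosomes 17 and 19, next in density, had 8 of 93 and 5 of 59 such windows. These counts follow from the density that chose the chromosome. The windows from 69 to 70 Mb and from 115 to 116 Mb were the richest in B cells, with 73 peaks each. They held 62 and 51 plasmablast peaks. Of the 73 B cell peaks of each, 49 were shared in the former and 46 in the latter. At the other end, 10 of the 119 windows (8.40%) had no peak in either list, and this share ran from 3.39% on chromosome 19 to 16.2% on chromosome 14 among the other autosomes.

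Most chromosome 11 sites were listed in both cell types. Overlap of 1 bp or more with the other list defined a shared peak, and each list had 2047 of them. They were 69.2% of the B cell peaks (interval 67.5 to 70.8%), against 67.9% in the whole list. Of the plasmablast peaks they were 83.9% (82.4 to 85.3%), against 79.5% in the whole list. Both percentages rest on the same shared count, so the higher plasmablast percentage follows from the shorter list. The unshared remainder was 913 B cell peaks and 393 plasmablast peaks.

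The shared percentage depends on peak strength, so it was also compared with the rates of the other chromosomes at the same score decile. At those rates 70.4% of the chromosome 11 B cell peaks would be shared, a value inside the observed interval (observed minus this value, -1.21 points). For plasmablast peaks the corresponding value was 80.0%, outside the observed interval (observed minus this value, 3.94 points). This was the largest positive difference among the 19 autosomes, but several others were close. Chromosome 19 had 3.63 points, chromosome 7 had 3.50, chromosome 4 had 3.35 and chromosome 8 had 3.26. The other autosomes had a median of 0.42 points, and the lowest was -5.43 points on chromosome 1. The rates of the other chromosomes include chromosome X, where the difference was -15.7 points. In the lowest decile of the plasmablast list 65.2% of the chromosome 11 peaks were shared (137 of 210, interval 58.4 to 71.7%), against 55.2% on the other chromosomes (53.3 to 57.0%). In the highest decile 97.5% were shared (269 of 276), against 96.8%. The chromosome 11 share was the higher one in every decile. In decile 8 it was 94.4% (interval 90.6 to 97.0%), against 87.9% (86.6 to 89.0%). This comparison was added after seeing the data, and with 1 library per cell type it has no test.

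Along the chromosome, most bins had a B cell shared percentage that counting error could not separate from that of the whole chromosome: in 20 of 22 fully covered bins with at least 20 peaks the interval held 69.2%, and the exceptions were bins 18 and 20. In these bins it ran from 52.4% in bin 3 (11 of 21 peaks, interval 29.8 to 74.3%) to 77.8% in bin 9 (35 of 45, 62.9 to 88.8%). Among well-filled bins, bin 18 (85 to 90 Mb) had the lowest value with 59.2% (93 of 157, 51.1 to 67.0%). Bin 20 had 77.3% (187 of 242, 71.5 to 82.4%), and the intervals of bins 18 and 20 did not overlap. No multiple comparison was allowed for in setting these intervals side by side.

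In plasmablasts the interval held the 83.9% of the whole chromosome in 17 of 21 bins, and the exceptions were bins 4, 18, 22 and 24. The percentage was lowest in bin 4, with 65.4% (17 of 26, interval 44.3 to 82.8%), and highest in bin 2 (5 to 10 Mb), with 90.9% (70 of 77, 82.2 to 96.3%). The rich bins 20, 21 and 24 had 88.2%, 88.8% and 89.4%. Bins 18 and 22 were lower, with 75.6% (67.0 to 82.9%) and 76.2% (67.9 to 83.2%), and their intervals lay below that of bin 24 (84.5 to 93.2%). Bins 3 and 8 had too few plasmablast peaks for the range: in bin 3, 11 of 18 were shared (61.1%, 35.7 to 82.7%), and in bin 8 all 11 were (lower bound 71.5%). Over 21 bins the Spearman rho between peak number and shared percentage was 0.52 in plasmablasts and 0.04 in B cells. Bins are parts of 1 chromosome in 1 library each, so these values are descriptions.

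**Figure D3:**
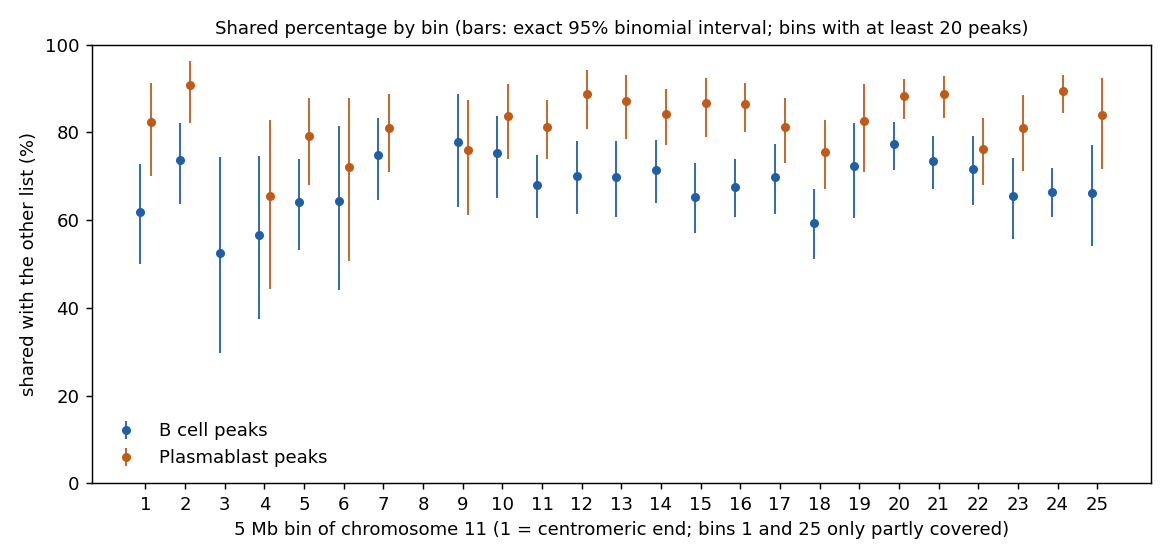
Percentage of peaks shared with the other list (y axis) in each 5 Mb bin with at least 20 peaks (x axis), for B cell peaks in blue and plasmablast peaks in orange, with exact 95% binomial intervals as bars. Plasmablast values lie above the B cell values in all plotted pairs except bin 9 (76.1% against 77.8%), and bins 18 and 22 lie low for plasmablasts at 75.6% and 76.2%.

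Unshared peaks of chromosome 11 came from B cells in 69.9% of cases (interval 67.3 to 72.4%), against 64.7% of all unshared peaks of the genome. Chromosome 19 alone among the autosomes had a higher value (71.8%). By bin, B cells made up 81.0% of the unshared peaks in bin 24 (98 of the B cell list and 23 of the plasmablast list, interval 72.9 to 87.6%). In bin 22 they made up 55.7% (39 and 31, interval 43.3 to 67.6%), and the intervals of both bins did not overlap. Bin 9 had 10 and 11 unshared peaks. Bin 22 had 31 plasmablast only peaks among 130 and bin 18 had 30 among 123, the highest counts of any bin. These counts depend on how many peaks a bin holds. As a share the order differed: 76.2% of the plasmablast peaks were shared in bin 22, 75.6% in bin 18 and 65.4% in bin 4. In the whole plasmablast list 79.5% were shared.

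Chromosome 11 peaks ranked slightly above the middle of their lists. The median percentile was 54.0 in B cells (quartiles 27.2 and 78.5) and 53.5 in plasmablasts (26.7 and 77.4), each second among the autosomes. The highest score decile of the B cell list held 355 chromosome 11 peaks, 12.0% of them, against 10.1% over the whole list. Of the plasmablast peaks 276 were in the highest decile, 11.3% against 10.0% over the whole list. Shared peaks had a median percentile of 68.9 in B cells and 58.2 in plasmablasts, and unshared peaks had 21.1 and 27.3.

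The richest bins held strong sites, but number and strength did not run together in all bins. Among fully covered bins with at least 20 peaks in the list, the median percentile was highest in bin 21 in both lists, at 62.6 in B cells and 63.9 in plasmablasts, and lowest in bin 4, at 32.4 and 31.3. Of the bins below that minimum, bin 8 had 31.6 in B cells (18 peaks), and in plasmablasts bin 3 had 68.4 (18 peaks) and bin 8 had 49.6 (11 peaks). Over 21 bins the peak number and the median percentile had a Spearman rho of 0.50 in B cells and 0.71 in plasmablasts. Peaks of the highest decile made up 17.5% of the B cell peaks in bin 24 (51 of 292) and 18.9% of the plasmablast peaks (41 of 217). In bin 4 they were 1 of 30 and 0 of 26. Bins 11, 14 and 18, with 172, 165 and 157 B cell peaks, had B cell medians of 51.3, 51.8 and 44.8 and top decile shares of 9.88%, 7.88% and 7.64%. Bin 19, with 72 B cell peaks, had a median of 59.3 and a top decile share of 15.3%. The rich bins 20, 21 and 24 together held 34.1% of the top decile peaks of the chromosome in B cells and 38.0% in plasmablasts. Bin 16 had 29 such B cell and 28 such plasmablast peaks.

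**Figure D4:**
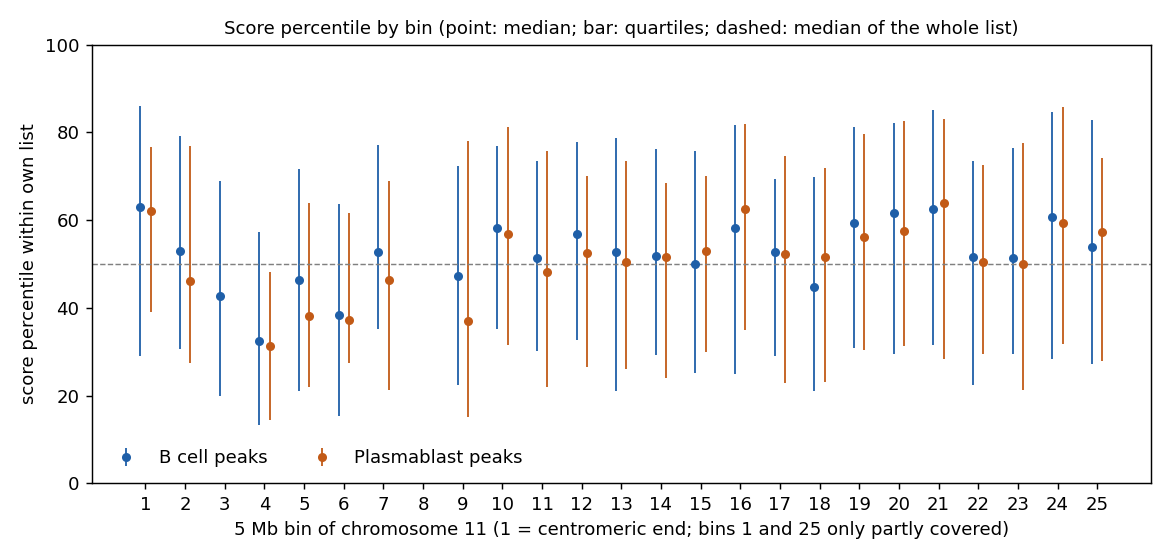
Score percentile within the own list (y axis; point, median; bar, quartiles) by 5 Mb bin (x axis) for B cell peaks in blue and plasmablast peaks in orange, with the median of the whole list dashed. Bins with under 20 peaks in a list are left out. Of the plotted bins, bin 4 lies lowest in both (32.4 and 31.3), and of the fully covered ones bin 21 lies highest (62.6 and 63.9).

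The strongest chromosome 11 sites were strong in both cell types. The highest scoring B cell peak lay at 5014964 to 5015268 with a score of 417.7, and its plasmablast partner scored 91.3, at the 99.4th percentile of that list. The second, at 51353191 to 51353495, scored 409.4 and its partner 91.0, also at the 99.4th percentile. The third, at 102964002 to 102964306, scored 400.1 and its partner 149.5, which was the top plasmablast peak of the chromosome. It was the only site among the 5 highest of both lists. The next B cell peaks, starting at 101593949 and 120637427, scored 398.3 and 395.5 and had partners at the 97.4th and 98.3rd percentiles. All 5 pairs had midpoints within 18 bp of each other.

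In plasmablasts the second strongest site, at 95120510 to 95120688, scored 128.5, and the third, at 69392877 to 69393055, scored 127.1. Their B cell partners scored 347.3 and 304.7, at the 99.6th and 99.1st percentiles. The next, starting at 88961908 and 45758422, scored 100.6 and 98.6, with partners at the 98.9th and 99.3rd percentiles. The 5 top sites lay in bins 2, 11, 21 (2 sites) and 25 in the B cell list, and in bins 10, 14, 18, 20 and 21 in the plasmablast list. Of the 2047 shared sites 179 were in the highest decile of both lists (8.74%), against 7.31% of all shared sites of the genome.

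Strong unshared peaks were few. Above the 50th percentile of their list lay 107 unshared B cell peaks (3.61% of the chromosome's peaks, against 3.06% in the whole list) and 98 unshared plasmablast peaks (4.02%, against 5.11%). In the highest decile there were 3 (0.101% of the chromosome's peaks, against 0.033% in the whole list) and 7 (0.287%, against 0.318%). The strongest B cell peak without overlap, at 11361903 to 11362207 (score 277.9, 97.9th percentile), had a plasmablast peak with its midpoint 349 bp away at the 90.7th percentile. The next, at 11688763 to 11689067 (253.8, 95.5th percentile), lay 304 bp from the plasmablast peak at 11688522 to 11688700, which scored 68.9 (96.3rd percentile) and was itself the second strongest unshared plasmablast peak. Both loci thus ranked above the 90th percentile in either list although their intervals did not touch. The third, at 105945403 to 105945707 (242.7), had a weak plasmablast peak of score 3.9 at 355 bp. The next, starting at 119114590 and 80287669, scored 167.6 and 166.7 and had their nearest plasmablast midpoints 4266 and 2505 bp away.

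The strongest unshared plasmablast peak was at 88946016 to 88946194 with a score of 76.4 (98.0th percentile). Its nearest B cell midpoint lay 4143 bp away, at a peak of score 74.1 (55.2nd percentile). The third, at 79109837 to 79110015 (67.3, 95.8th percentile), was 2629 bp from a B cell peak of score 19.4 (12.0th percentile). The next, starting at 118081993 and 83254389, scored 58.0 and 57.0 and lay 263 and 486 bp from B cell peaks at the 21.1st and 99.0th percentiles. Over the whole chromosome, 19 of the 913 unshared B cell peaks and 28 of the 393 unshared plasmablast peaks had a midpoint of the other list within 500 bp. No such count is given for the other chromosomes. The median distance from an unshared peak to the nearest midpoint of the other list was 11382 bp for B cell peaks and 4572 bp for plasmablast peaks. The B cell list is longer (2960 against 2440 peaks on chromosome 11), which shortens distances measured from plasmablast peaks. How much of the difference this makes up was not tested.

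At shared sites the ranks of both libraries had a Spearman rho of 0.73 on chromosome 11 (0.64 to 0.74 on the other autosomes). The correlation is across 2047 sites, which are not replicates. With percentiles of the whole lists, the plasmablast minus B cell difference had a median of -8.15 points, against -7.06 on all other chromosomes, and 622 of the 2047 sites (30.4%) ranked higher in plasmablasts, against 34.0% of all shared sites. Shared peaks make up a larger part of the plasmablast list, which shifts these percentiles. Ranked among shared sites only, the median difference on chromosome 11 was -1.68 points, and 44.8% of its sites ranked higher in plasmablasts. Both lay within the ranges of the other autosomes. The median ran from -3.63 points on chromosome 19 to 2.83 on chromosome 3, and the share from 42.9% on chromosome 7 to 56.8% on chromosome 3.

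On this second scale, among the bins with at least 20 shared sites (bins 1 and 25 included), the median difference was highest in bin 22 (105 to 110 Mb), with 5.02 points (quartiles -10.4 and 15.6), and 59 of its 99 shared sites ranked higher in plasmablasts. Bin 9 followed with 1.63 points (20 of 35 sites). The lowest values were in bin 1, with -9.79 points (13 of 47 sites higher in plasmablasts), bin 5 (20 to 25 Mb), with -9.38 (19 of 57), and bin 7 (30 to 35 Mb), with -6.80 (24 of 68). The bins with fewer sites had 4.28 (bin 3, 11 sites), 10.5 (bin 4, 17 sites), -2.43 (bin 6, 18 sites) and -7.12 points (bin 8, 11 sites). In every bin with at least 20 shared sites the quartiles lay on both sides of 0, so sites of either direction were mixed throughout the chromosome. Bin 22 was thus low in the plasmablast shared percentage and had the highest median rank difference among bins with at least 20 shared sites. Both values were read from the same 138 B cell and 130 plasmablast peaks.

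**Figure D5:**
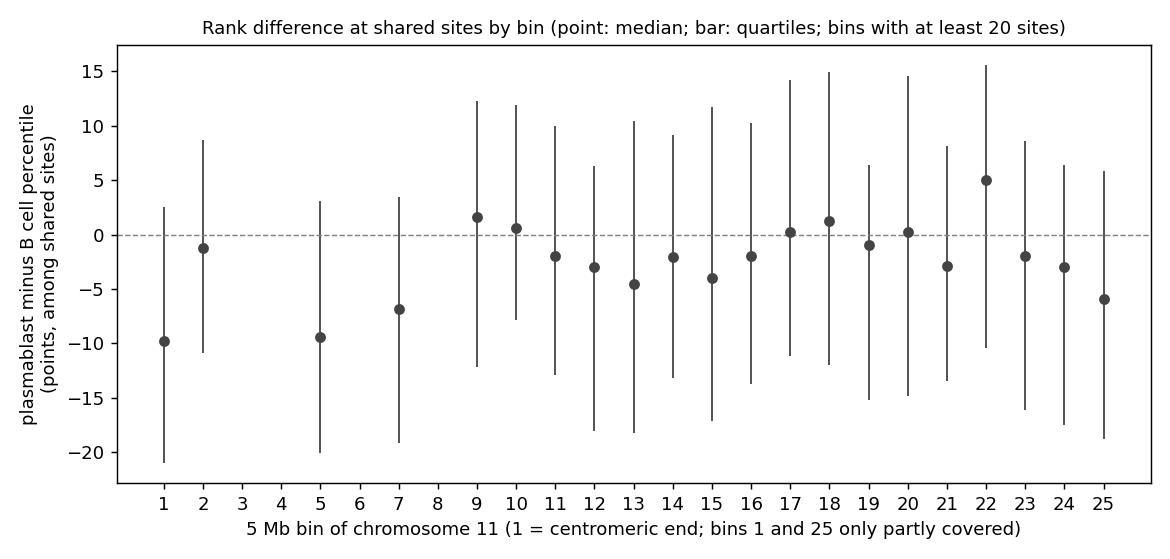
Difference in percentile at shared sites, plasmablast minus B cell, ranked among all shared sites (y axis, points; point, median; bar, quartiles), by 5 Mb bin with at least 20 shared sites (x axis). Bin 22 lies highest at 5.02 points and bin 1 lowest at -9.79 points, and the quartile bars of all plotted bins cross 0.

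Large rank differences ran in both directions. More than 50 points in favour of B cells were found at 62 sites (3.03%, against 2.70% of all shared sites), and in favour of plasmablasts at 16 sites (0.782%, against 0.972%). The site at 108311116 to 108311420 in bin 22 was at the 2.59th percentile in B cells (score 13.9) and its partner at the 89.8th in plasmablasts (score 55.0). At 115801050 to 115801354 the percentiles were 8.55 and 94.6 (scores 17.6 and 63.9), and at 110226366 to 110226670 they were 18.4 and 95.7 (23.2 and 67.1). In the other direction the largest difference was at 24157763 to 24158067, at the 88.3rd percentile in B cells (207.5) and at percentile 11.1 in plasmablasts (6.6). At 75267824 to 75268128 the percentiles were 78.6 and 2.98 (159.3 and 4.6), and at 65634371 to 65634675 they were 88.7 and 14.9 (209.3 and 7.3). All 6 pairs had midpoints within 32 bp of each other. These 6 sites were taken as the extremes of the measure, and no library repeats them.

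Distances between neighbouring sites follow from the density that chose the chromosome, and are given as a description. The median distance from a peak to the nearer neighbour of the same list was 7989 bp in B cells and 8920 bp in plasmablasts, the shortest of the autosomes in both lists (8810 to 12449 bp and 9879 to 16155 bp elsewhere). Peaks with a neighbour within 5 kb were 30.0% of the list in B cells and 32.6% in plasmablasts, against 26.1% and 27.1% on the other chromosomes. Peaks more than 100 kb from their nearest neighbour were 54 (1.82%) and 69 (2.83%), against 4.00% and 5.31% elsewhere.

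Strength varied with this distance in both lists, and the shared percentage in the plasmablast list. In B cells the median percentile went from 56.3 for peaks with a neighbour within 5 kb to 45.0 for those more than 100 kb apart, and the shared percentage stayed between 67.0% and 74.1% over 4 distance classes. In plasmablasts the median percentile went from 57.4 to 31.1. Plasmablast peaks 5 to 20 kb from their neighbour were shared in 90.4% of cases (904 of 1000, interval 88.4 to 92.2%), those within 5 kb in 77.8% (74.7 to 80.6%) and those beyond 100 kb in 65.2% (45 of 69, 52.8 to 76.3%). The other chromosomes had the same order, with 84.7%, 77.1% and 60.1%. For B cell peaks they had 69.1% within 5 kb and 65.3% beyond 100 kb, where chromosome 11 had 74.1% (40 of 54, interval 60.3 to 85.0%). Their median B cell percentile beyond 100 kb was 33.7.

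Close runs of sites, with midpoints at most 2 kb apart, held 336 B cell peaks (11.4%) and 327 plasmablast peaks (13.4%). Shares for the other chromosomes are not given, so these describe chromosome 11 only. There were 8 runs of 3 peaks in B cells, and 15 of 3 and 1 of 4 in plasmablasts. Of the 8 B cell runs 6 coincided with a plasmablast run, and in each of these 6 all 3 B cell peaks were shared. The strongest were at 69694012 to 69696946, with B cell scores from 127.8 to 239.0 and plasmablast scores from 21.4 to 40.4, and at 66923765 to 66926614, with scores from 157.5 to 238.0 and from 37.9 to 45.4. The remaining B cell runs were weak: the run at 117125032 to 117129101 had scores from 18.5 to 30.6 and no shared peak, and that at 82575929 to 82577810 had scores of at most 36.1 and 1 shared peak. The run of 4 plasmablast peaks at 98647239 to 98650423 had scores from 11.6 to 37.0, and 2 of its peaks were shared. Peak width and smallest spacing differ between the lists, so the run counts of both lists are not comparable in number.

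With both lists combined, the chromosome had 3353 separate sites with a median spacing of 14.0 kb, and 10 gaps of more than 1 Mb between neighbouring midpoints. These gaps took up 16.3% of the covered span, which was 13.6% on chromosome 19 and 20.5% on chromosome 17. The widest gap was 3.70 Mb, from 12459531 to 16161266, across the border of bins 3 and 4. A gap of 3.69 Mb from 36725217 to 40415167 took up most of bin 8. The third, of 2.77 Mb, ran from 90559437 to 93333201. The next were of 1.59 Mb, from 27120244 to 28708725, and of 1.58 Mb, from 9548268 to 11123276. All but 1 of the 10 sites beside these 5 gaps were listed in only 1 cell type, and the exception was the shared site before the second gap. Over all 10 gaps of more than 1 Mb, 15 of the 20 edge sites (75%) were unshared, against 38.95% of all combined sites of the chromosome. On the other autosomes 58.9% of 564 such edges and 42.3% of all combined sites were unshared. The percentiles of the 10 sites beside the 5 widest gaps of chromosome 11 ran from 6.90 to 68.7. No mm9 sequence was used, so whether the gaps hold unsequenced stretches was not checked.

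The most isolated site of the chromosome was shared. It lay at 47471653 to 47471957 in bin 10, with its neighbours 878 kb and 931 kb away, and was of middling strength in B cells (score 57.4, 47.8th percentile) and plasmablasts (13.4, 36.7th percentile). The second, at 42217696 to 42217874, was a weak plasmablast only peak (6.1, percentile 8.51) with neighbours at 1538 and 809 kb. The site at 18924559 to 18924863 was shared at the 23.7th and 24.1st percentiles, with neighbours at 1172 and 737 kb. The fourth, at 17752498 to 17752676, was again a weak plasmablast only peak (6.1), and the fifth, at 36339926 to 36340230, was shared at the 24.9th and 2.05th percentiles, with neighbours at 481 and 385 kb.

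Within the B cell list alone, the isolated peaks also included 110925999 to 110926303, which was shared, scored 112.1 (67.4th percentile) and had a plasmablast partner at the 22.0th percentile. The B cell peak at 111928526 to 111928830 (score 34.3) was unshared, with a plasmablast peak of score 24.4 at 111964670 to 111964848, 36.1 kb away. Each of this pair was among the 5 most isolated of its own list. Of the 913 unshared B cell peaks, 18 lay more than 100 kb from any midpoint of the other list. The same held for 23 of the 393 unshared plasmablast peaks. Counts for the other chromosomes are not given, so these describe chromosome 11 only.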

How the data were processed

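CTCF binding was measured by chromatin immunoprecipitation sequencing in 2 cell types, with 1 library each. The authors deposited 1 peak list per CTCF library. HOMER, Bowtie and build mm9 are named in the submitters' processing notes, and nothing in the sources used here states versions, thresholds or how input was used. The score of each peak is the authors' own, and its unit is not stated. Depth is unknown, so a site missing from a list may still be bound. Starts were read as BED, and 1 was added. Overlap of at least 1 bp was computed in Python 3.11.15 (numpy 2.4.6, pandas 2.3.3, scipy 1.17.1), gave the same 2047 shared peaks with bedtools 2.31.1 and was tested on simulated data. Percentiles are mid-ranks within a list. Figures used matplotlib 3.10.9. Chromosome 11, its bins and the alternatives were chosen with earlier results of these data known. Sites named are the 5 highest scoring shared and unshared and the 5 most isolated peaks of each list, the 5 most isolated sites and widest gaps of both, the 3 largest rank differences in each direction and the longest runs. Input libraries, promoters and motifs were not analysed here.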

Additional observations from a re-analysis of the deposited data

How the results depend on the processing

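The shared percentage moved with the list threshold more than with the overlap rule. For B cells (69.2%) the overlap rules gave 67.7 to 69.8%, inside the counting interval. Above the median score of each list it was 93.3%, and among the 10000 highest scoring peaks 67.3%. For plasmablasts (83.9%) it was 82.1% with 50% reciprocal overlap. It was 92.4% above the median score, matched to the whole B cell list, and 75.1% with both lists cut to 10000. The plasmablast minus B cell percentage, added after seeing the data, was 14.7 points, and 7.78 among the 10000 highest. Its sign turned above the median scores (-0.87), where each percentage came from a cut list matched to an uncut one. Chromosome 11 held 9.37% of the 10000 highest B cell and 8.40% of the highest plasmablast peaks, and its density there was 7.89 and 7.07 per Mb, which the shorter lists lower by construction. With 10 Mb bins the densest and sparsest bin differed by 35.1 peaks per Mb in B cells and 27.3 in plasmablasts, against 54.8 and 41.2 with 5 Mb bins. The densest bin was 97500001 to 102500000 in both lists when bins were moved by 2.5 Mb. It differed between the lists with 2 Mb bins (from 114000001 in B cells, from 96000001 in plasmablasts) and with 10 Mb bins (from 110000001 and from 100000001). The rank difference of -8.15 became -1.68 among shared sites. Of 40 alternatives 26 stayed within the interval or margin. The mm9 chromosome length, promoters and motifs were not run. No paired analysis was possible because each cell type had 1 library and no result came from a test.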
